A study of Mus musculus with 17 samples.

Results

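Signal transducers and activators of transcription (STAT proteins) and their feedback genes were followed across 8 groups of sorted mouse CD4 T cells. The set holds 10 genes, taken by name from the array's gene table: the feedback inhibitors Socs1, Socs2, Socs3 and Cish, the serine/threonine kinase gene Pim1, and Stat3, Stat4, Stat5a, Stat5b and Stat6. They are read by 24 of the 45101 probe sets, and they are 10 of the 18194 genes that a probe set of the array names alone. All 10 passed the filter on low signal in both experiments described next.

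Cytokines reach these genes through receptor-bound Janus kinases, which phosphorylate STAT proteins so that they pair, enter the nucleus and bind DNA. IL-2 acts mainly through STAT5A and STAT5B, IL-6 and IL-10 through STAT3, IL-12 through STAT4, and IL-4 through STAT6. Cish, Socs1, Socs2, Socs3 and Pim1 are transcribed in response to such signals, and the SOCS-type proteins bind receptors or kinases and dampen the signal. In regulatory T cells, IL-2 and STAT5 are known to maintain Foxp3, whereas STAT4 and STAT6 are known for T helper type 1 and type 2 programmes.

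The samples came from cells of male mice aged 6 to 10 weeks, with cells of 3 mice pooled for each array and the RNA amplified in 2 rounds. In the co-culture experiment, spleen CD4 cells that lacked Foxp3, from C57BL/6-Foxp3/GFP reporter mice, were kept for 5 days with dendritic cells (DC) at 10 T cells to 1 DC. All of these cultures held anti-CD3 at 1 µg/ml, TGF-beta at 0.6 ng/ml and IL-2 at 5 ng/ml. The DC came from spleen (Sp-DC, 2 Foxp3+ and 2 Foxp3- arrays), from the lamina propria of the gut (LP-DC, 2 and 2 arrays), or from spleen with 100 nM retinoic acid (RA) added (2 Foxp3+ arrays and 1 Foxp3- array). Foxp3+ and Foxp3- cells were separated by their GFP after culture, so both fractions of a culture shared every agent, IL-2 included. In the memory experiment, C57BL/6 CD44hi CD62L- CD25- CD4 cells of spleen and lymph nodes were cultured for 48 hours with naive CD4 cells that carried another CD45 allele. The ratio of the mixed cells was 2 to 1, in an order not given here. These cultures held beads with anti-CD3 and anti-CD28, IL-2 at 20 U/ml and TGF-beta at 10 ng/ml, without RA (3 arrays) or with 100 nM RA (3 arrays), and the memory cells were sorted back by the CD45 allele. Apart from the pooling of mice, the labels do not say that arrays of a group were separate cultures, so a p-value measures the spread between these arrays, which may be partly technical. A second Foxp3- array of the culture with Sp-DC and RA was not analysed here.

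Values are log2 of normalised array intensity. Each gene is read by its lead probe set, the brightest one, unless another is named. Probe sets named x_at, whose oligos may also bind other transcripts, were passed over as lead where the gene had another. For Socs3 those passed over were brighter than the lead. Levels are not compared between genes, because probe sets differ in how strongly they bind. Over the 17 arrays, the array median lay between 5.88 and 5.98. The number of arrays limits the precision. Arrays with the same number in different groups deviated together, so each comparison was fitted in limma both without the array number (the unpaired fit) and with it (the paired fit). A gene is said to rise or fall where its Benjamini-Hochberg adjusted p, taken over all genes tested, was under 0.05, with the fit named.

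As checks of the labels, the RA targets Itga4, Dhrs3 and Cyp26b1 were higher with RA in memory cells by 4.06 ± 0.14, 2.63 ± 0.27 and 1.49 ± 0.13 (SE), and all passed in the paired fit. In Foxp3+ cells of the co-culture, they were higher by 2.11 ± 0.26, 2.36 ± 0.21 and 2.72 ± 0.14 in the paired fit, which all passed as well. The Foxp3 probe set itself lay between 3.88 and 4.53 on all co-culture arrays, below the array medians, and so does not check the sort. On the memory arrays the same probe set read 7.08 to 9.14, above the array medians. Why it read low in the sorted Foxp3+ cells was not tested. Gpr83 and Izumo1r, known markers of Foxp3+ cells, were higher in Foxp3+ cells by 2.49 ± 0.23 and 1.56 ± 0.09. The T cell genes Cd3d and Cd4 were well above the array median on every array, at 10.19 to 12.94 and 8.76 to 9.68.

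With the sort for Foxp3, Socs2, Pim1, Cish and Socs3 rose in Foxp3+ cells in the paired fit, and no STAT gene passed in either fit. Averaged over the 3 cultures, Socs2 was 2.44-fold and Pim1 1.78-fold higher in Foxp3+ cells in the paired fit, and both rose in the unpaired fit too. Cish, 1.68-fold higher, and Socs3, 1.36-fold higher, rose in the paired fit only. Thus 2 of the 10 genes rose and 0 fell in the unpaired fit, where 0.498% of 11846 genes were called higher, and 4 rose and 0 fell in the paired fit, where 2.63% were called higher. The median of the 10 differences was 0.38 in the paired fit, against -0.02 for all genes tested.

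Socs2, which restrains growth hormone and cytokine receptors, showed the widest separation. Its levels were 9.12 and 9.88 in Foxp3- cells with LP-DC against 11.32 and 11.47 in Foxp3+ cells. With Sp-DC they were 10.00 and 9.78 against 11.16 and 10.66. With Sp-DC and RA the single Foxp3- array read 9.68, and the Foxp3+ arrays 10.68 and 10.58. All 6 Foxp3+ arrays were therefore above all 5 Foxp3- arrays, and the difference over the 3 cultures was 1.29 ± 0.16 (SE, adjusted p = 0.00146, paired) and 1.29 ± 0.17 (adjusted p = 0.0164, unpaired). The unpaired call was lost without either LP-DC Foxp3+ array or without either Sp-DC Foxp3- array, with adjusted p of 0.0553 to 0.0676 for Socs2, while the paired call held under all 19 alternatives.

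Pim1 encodes a survival kinase that STAT5 is known to induce. Its levels were 10.14 and 10.25 in Foxp3- cells with LP-DC and 11.54 and 11.32 in Foxp3+ cells. With Sp-DC they were 10.51 and 10.29 against 11.35 and 10.97, and with RA 10.26 against 10.83 and 10.84. Again every Foxp3+ array exceeded every Foxp3- array. The difference was 0.83 ± 0.09 (adjusted p = 0.00104, paired) and 0.86 ± 0.11 (adjusted p = 0.0164, unpaired). The unpaired Pim1 call was lost, at adjusted p of 0.0537 to 0.0595, without LP-DC Foxp3- array 1, without either LP-DC Foxp3+ array or without either Sp-DC Foxp3- array. It was also lost with 1 fit over all arrays, at an adjusted p of 0.223.

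Cish, a STAT5 target gene whose protein binds the IL-2 receptor, read 9.63 and 10.31 in Foxp3- cells with LP-DC and 11.05 and 11.25 in Foxp3+ cells. With Sp-DC it read 10.20 and 10.55 against 10.98 and 11.26. With RA, the single Foxp3- array read 10.999, between the Foxp3+ arrays at 10.85 and 11.36, so the fractions overlapped. Cish was higher in Foxp3+ cells in 5 of 5 pairs of the same culture and array number, by 0.37 to 1.42. The paired difference was 0.75 ± 0.09 (adjusted p = 0.00159), and the unpaired difference 0.68 ± 0.17 did not pass (adjusted p = 0.164).

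Socs3, a feedback inhibitor of signals through the shared receptor chain gp130, overlapped between the fractions on its lead probe set. Foxp3- cells read 6.15 and 6.99 with LP-DC, 6.41 and 7.12 with Sp-DC and 6.89 with RA. Foxp3+ cells read 6.93 and 7.34, 6.80 and 7.68, and 6.55 and 7.13. Within pairs, 5 of 5 were higher in Foxp3+ cells, by 0.24 to 0.78. The difference was 0.44 ± 0.09 paired (adjusted p = 0.0229) and 0.33 ± 0.25 unpaired (adjusted p = 0.985). The paired Socs3 call was lost, at adjusted p of 0.0522 to 0.0927, without array 1 of LP-DC Foxp3-, LP-DC Foxp3+, Foxp3+ with RA or Sp-DC Foxp3-, or without array 2 of Sp-DC Foxp3- or Foxp3+.

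Socs1, an inhibitor of Janus kinases, and Stat3 did not pass over the 3 cultures, but each passed in the paired fit under some alternatives. Socs1 was lowest at 6.60 and highest at 6.96 in Foxp3- cells, with a median of 6.83. In Foxp3+ cells it ran from 7.02 to 7.64 with a median of 7.20, so the fractions did not overlap. Socs1, Socs2 and Pim1 were the 3 genes of the set with all Foxp3+ arrays above all Foxp3- arrays, which held for 0.616% of all genes tested. The Socs1 difference was 0.39 ± 0.10 (adjusted p = 0.0585, paired, and 0.335 unpaired). It passed when paired with quantile normalization (0.0457), with trended and robust variances (0.0482), with 1 fit over all arrays (just under 0.05) and without Sp-DC Foxp3+ array 2 (0.0225). Stat3 ran from 8.75 to 9.30 in Foxp3- cells and from 9.21 to 9.74 in Foxp3+ cells, and was higher in Foxp3+ cells by 0.38 ± 0.10 (adjusted p = 0.0656, paired, and 0.224 unpaired). Stat3 passed when paired with quantile normalization (0.0409) and with 1 fit over all arrays (0.0353).

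No call was made for the remaining STAT genes over the 3 cultures. In the paired fit the differences were 0.25 ± 0.11 for Stat5a, 0.23 ± 0.13 for Stat5b and 0.05 ± 0.09 for Stat6, with adjusted p of 0.32, 0.484 and 0.912. By culture, Stat5a differed by 0.54 ± 0.17 with LP-DC and 0.40 ± 0.17 with Sp-DC, and by -0.18 ± 0.22 with RA, where the Foxp3- side is 1 array. The only pair there, of arrays numbered 2, differed by 0.06, while the fit also draws on Foxp3+ array 1. Stat5b likewise differed by -0.03 in that fit and by 0.20 in that pair. With only the LP-DC arrays in the paired fit, Stat5a and Stat3 passed there, at adjusted p of 0.0347 and 0.0186. Stat4, whose protein relays IL-12 signals, was the only gene of the set that was lower in Foxp3+ cells in 5 of 5 pairs, with differences of -0.37 to -0.02, as 9.66% of all genes were. Its difference of -0.23 ± 0.10 did not pass (adjusted p = 0.311). Higher in 5 of 5 pairs were 8 of the 10 genes, against 10.0% of all genes, and Stat6 was higher in 4 of 5. The 95% interval of the paired difference was -0.16 to 0.25 for Stat6 and -0.06 to 0.52 for Stat5b.

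**Figure D1:**
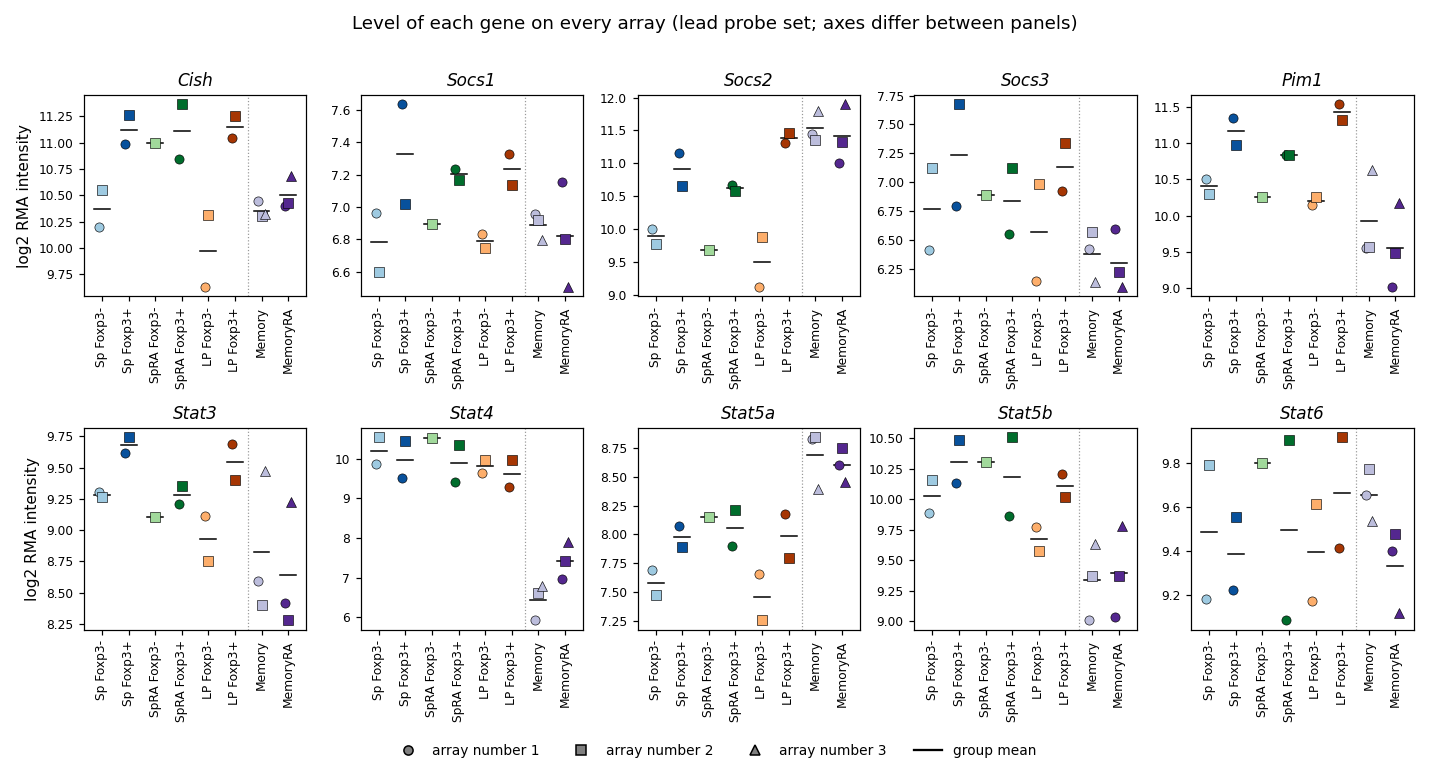
Log2 intensity of each of the 10 genes on each of the 17 arrays, by group, with array numbers as symbols and group means as bars. Axes differ between panels. Socs2, Pim1 and Socs1 lie higher on all 6 Foxp3+ arrays than on all 5 Foxp3- arrays, and Stat4 is lower on the memory arrays (5.92 to 7.90) than in the co-culture (9.28 to 10.53).

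**Figure D2:**
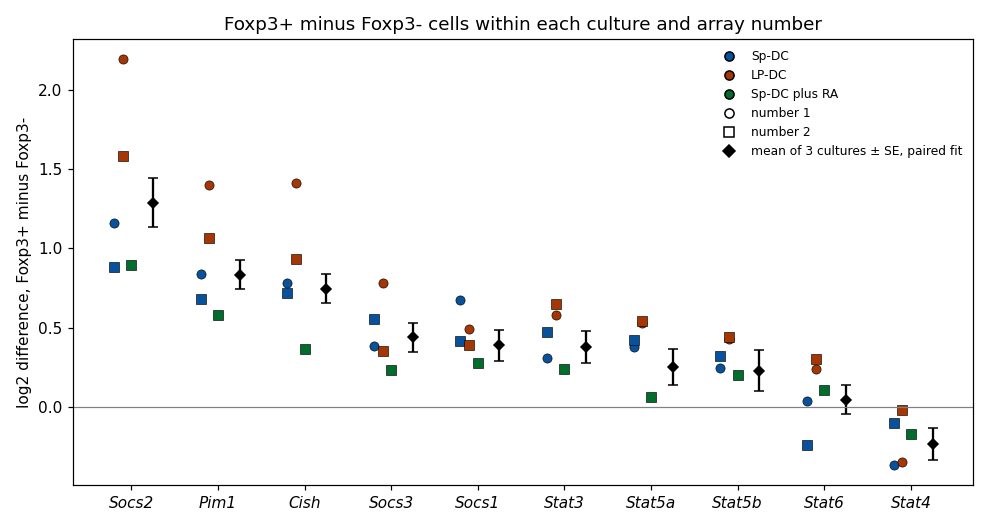
Foxp3+ minus Foxp3- log2 difference within each culture and array number (5 pairs), with the mean of the 3 cultures ± SE from the paired fit as diamonds. Socs2 runs from 0.89 to 2.19 with the LP-DC pairs highest, and Stat4 is below 0 in all 5 pairs.

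In this bulk RNA, fewer cells of a type and less RNA per cell cannot be told apart. Markers of CD8 T and NK cells moved with the sort: 2 of the 7 tested (of 9 listed), Klrd1 and Gzma, fell in Foxp3+ cells in both fits, with paired differences of -2.14 ± 0.15 and -2.86 ± 0.47, and none rose, where 2.16% of all genes were called lower. With LP-DC, the culture of the calls given next, 3 of the 7 fell in the paired fit, where 1.18% of all genes were called lower: Cd8a by 1.26 ± 0.24 (adjusted p = 0.0205), Klrd1 by 2.56 ± 0.24 and Gzma by 4.08 ± 0.74. The summed level of the 9 markers (linear intensity) was 7535 to 8167 in Foxp3- and 3625 to 3948 in Foxp3+ cells with LP-DC. With Sp-DC it was 12001 to 14918 against 9408 to 13737, and Klrd1 was lower in Foxp3+ cells there too (-2.04 ± 0.24, adjusted p = 0.0192, paired). Bright probe sets weigh most in these sums, with highest co-culture levels (log2) of 13.05 for Gzmb, 12.13 for Nkg7, 11.53 for Klrd1 and 11.22 for Gzma. Of the defining markers, Cd8a ranged from 4.68 to 7.01 on co-culture arrays, while Cd8b1 and Ncr1 stayed below the array medians, at most 5.76 and 5.45. DC and myeloid markers, of which 0 of 6 tested passed, summed to 1042 to 1155 against 1331 to 1342 with LP-DC. With Sp-DC they summed to 1525 to 2260 against 1678 to 2354. Between DC sources, H2-Ab1 of that list differed by -1.28 ± 0.21 for LP-DC over Sp-DC in Foxp3- cells (adjusted p = 0.0403, paired). The part of these cells in the differences of the 10 genes was not tested.

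Within single cultures, calls were made with LP-DC in the paired fit. With LP-DC, Socs2 was 3.71-fold higher in Foxp3+ cells (1.89 ± 0.25, adjusted p = 0.00339), Pim1 2.35-fold (1.23 ± 0.14, adjusted p = 0.00232) and Cish 2.26-fold (1.18 ± 0.14, adjusted p = 0.00273) in that fit. That made 3 of 10 genes called higher where 2.40% of all genes were. Unpaired, none of the 10 passed with LP-DC (adjusted p of 0.0509, 0.0523 and 0.177), where 0.101% of genes were called higher. In that fit 5 of the 10 had p under 0.05 before adjustment, as did 714 of all 11846 genes. With Sp-DC none passed in either limma fit, where 0.557% of genes were called paired and 0% unpaired. Before adjustment 7 of the 10 had p under 0.05 when paired and 4 when unpaired, against 1132 and 419 of all 11846 genes. There Socs2 differed by 1.02 ± 0.25 (adjusted p = 0.127), Pim1 by 0.76 ± 0.15 (adjusted p = 0.0572) and Cish by 0.75 ± 0.14 (adjusted p = 0.0577). With Sp-DC and RA, where the Foxp3- side is a single array assumed to vary like the other groups, none passed in either fit (0.0253% of genes called paired and 0% unpaired), and 2 had p under 0.05 before adjustment in each. Socs2 differed by 0.95 ± 0.31 and Cish by 0.31 ± 0.18 in that culture.

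Whether the sort differed between LP-DC and Sp-DC was tested as an interaction, and no gene of the array passed in either fit (0% of 11846 called). Before adjustment 434 genes had p under 0.05 when paired, 2 of the 10 among them. The same held for the interaction of RA with the sort, with 231 such genes, none of the 10 among them. Direct comparisons of DC sources gave no call among the 10 genes in either fit. In Foxp3+ cells LP-DC over Sp-DC ranged from -0.35 ± 0.16 for Stat4 to 0.48 ± 0.25 for Socs2, where 1.81% of genes were called paired and 0% unpaired. LP-DC over Sp-DC with RA was largest for Socs2, at 0.76 ± 0.25 (adjusted p = 0.182), and Pim1, at 0.59 ± 0.15 (adjusted p = 0.0832), where 1.87% were called paired and 0.0929% unpaired. In Foxp3- cells LP-DC over Sp-DC was at or below 0.01 for every gene of the set, from 0.01 ± 0.16 for Socs1 to -0.40 ± 0.14 for Cish and -0.40 ± 0.16 for Stat4, and 0.861% of genes were called paired and 0% unpaired. Before adjustment 0, 2 and 3 of the 10 had p under 0.05 in these paired fits, in the order given. Of all 11846 genes, 2245, 1653 and 1986 had such a p. These comparisons share arrays with each other and with the sort comparisons.

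**Figure D3:**
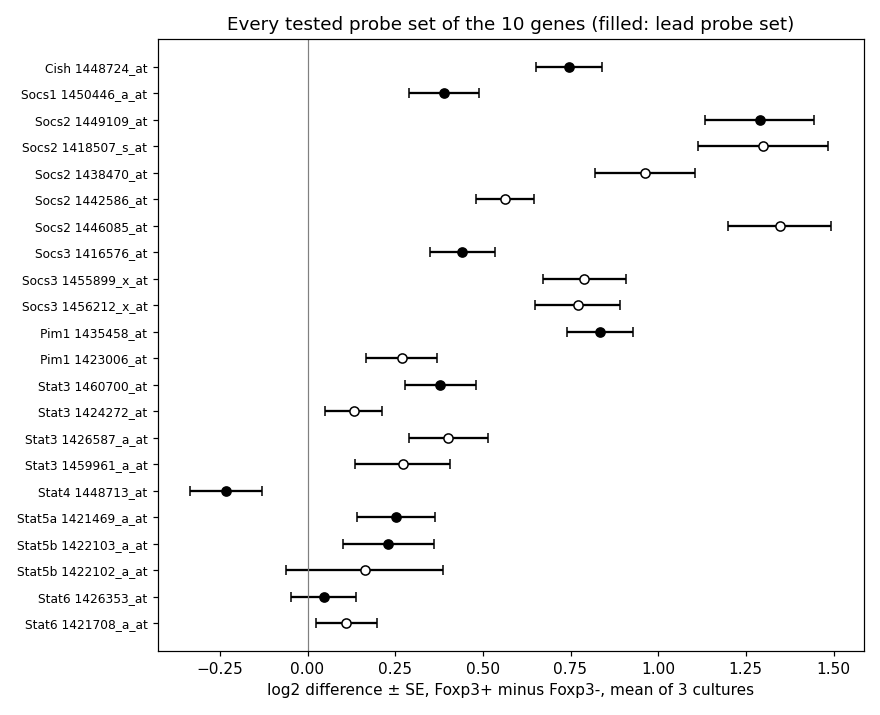
Foxp3+ minus Foxp3- log2 difference ± SE, mean of 3 cultures, paired fit, for each tested probe set of the 10 genes, lead probe sets filled. All 5 tested Socs2 probe sets lie between 0.56 and 1.35, the Socs3 probe sets lie at 0.44, 0.79 and 0.77, and the lower Pim1 probe set lies at 0.27.

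Other probe sets of the same genes gave the sort difference an internal comparison. Fitted over probe sets, all 5 tested Socs2 probe sets rose in the paired fit, by 0.56 ± 0.08 to 1.35 ± 0.15, and a sixth was below the array median on every array. The Socs3 probe sets 1455899_x_at and 1456212_x_at, whose oligos may also bind other transcripts, rose by 0.79 ± 0.12 and 0.77 ± 0.12 (adjusted p = 0.00545 and 0.00685). Pim1 disagreed: its second probe set, 1423006_at, lay near the array median and differed by 0.27 ± 0.10 (adjusted p = 0.237). The 4 Stat3 probe sets ranged from 0.13 ± 0.08 to 0.40 ± 0.11, and none passed. The second Stat5a probe set was below the array median on all arrays.

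Sequence near a start is shown for Cish, Socs3, Pim1 and Socs1, since STAT dimers bind the palindrome TTCNNNGAA. RefSeq windows of 250 bases before to 50 after a start (assembly GRCm38.p6) were found for 9 of the 10 genes, all but Socs2, with 13 windows in all. TTCNNNGAA occurred, on either strand (it is its own reverse complement), in 8.3% of all 32851 windows, and 2 or more times in 0.457%. Cish (chr9:107296659-107302784, plus strand) held 2 matches, at bases 1 and 12 counted from the start, and Socs3 (chr11:117966079-117970336, minus strand) held 1, at -154. The Socs3 window is set on a start that lies inside the gene's annotated span, so its match falls within that span. Capitals mark these matches in the following lines, which cover chr9:107296655-107296684 on the plus strand and chr11:117969502-117969531 on the minus strand.
Cish: agttTTCCTGGAAagTTCTTGGAAatctgt
Socs3: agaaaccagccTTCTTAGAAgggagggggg
A wider spacing that STAT6 is known to bind, with any 4 bases between TTC and GAA, occurred in 6.95% of all windows and in none of the 13.
The windows of Pim1 (chr17:29490785-29496111, plus strand) and Socs1 (chr16:10783808-10785536, minus strand) had no match to TTCNNNGAA. Socs1 held 2 overlapping matches, at -83 and -77, to the core of an interferon-stimulated response element, searched as a pair of GAAA blocks with any 2 bases between, and both are marked in capitals. That core occurred on either strand in 3.44% of all windows, and 2 or more times in 0.225%. A Stat4 window, whose sequence is not shown, held 1 match to it, at -97. The lines give the 150 bases before the Pim1 and Socs1 starts, at chr17:29490635-29490784 and chr16:10785537-10785686. Pim1 is shown for comparison, as a gene that rose with the sort.
Pim1: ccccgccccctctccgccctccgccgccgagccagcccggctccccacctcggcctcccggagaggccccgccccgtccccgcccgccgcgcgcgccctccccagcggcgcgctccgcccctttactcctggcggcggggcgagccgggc
Socs1: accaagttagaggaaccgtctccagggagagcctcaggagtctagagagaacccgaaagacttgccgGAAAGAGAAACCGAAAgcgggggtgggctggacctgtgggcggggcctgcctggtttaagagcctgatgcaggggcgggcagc
A match describes the letters only, and binding was not measured.

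With RA in memory cells Stat4 rose in the paired fit, and no other gene of the set passed. Stat4 read 5.92, 6.61 and 6.78 without RA and 6.97, 7.41 and 7.90 with RA. All 3 RA arrays were above all 3 without it, and each pair of the same number was higher with RA, by 0.80 to 1.12. Such a full separation upwards was seen in 4.25% of genes, and 3 of 3 higher pairs in 18.9%. Stat4 was 1.98-fold higher (0.99 ± 0.13, adjusted p = 0.00251) in the paired fit, where 2.60% of 12062 genes were called higher. Without RA its levels were near the array medians, on array 1 below its own median, so this fold is set against a low signal. Unpaired, where 0.0829% of genes were called in either direction, the same difference had an SE of 0.33 and did not pass (adjusted p = 0.856). The paired Stat4 call was lost without the arrays numbered 3, at 0.92 with an adjusted p of 0.0597.

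The other 9 genes did not pass with RA in memory cells in either limma fit. Before adjustment 3 of the 10 had p under 0.05 when paired and 1 when unpaired, against 1898 and 495 of all 12062 genes. Stat6, which relays IL-4 signals, read 9.65, 9.78 and 9.54 without RA and 9.40, 9.48 and 9.12 with RA. The Stat6 groups did not overlap, as for 3.56% of genes in that direction, but the difference of -0.32 ± 0.13 had an adjusted p of 0.245 in the paired fit. Pim1 read 9.55, 9.57 and 10.64 against 9.01, 9.48 and 10.18, lower in 3 of 3 pairs with overlapping groups (-0.36 ± 0.14, adjusted p = 0.236). Stat3 was lower in 3 of 3 pairs too, with pair differences of -0.25 to -0.12, and 17.4% of all genes were lower in all 3 pairs. Cish, at 10.44, 10.30 and 10.32 against 10.40, 10.43 and 10.68, and Socs2, at 11.44, 11.36 and 11.79 against 11.01, 11.32 and 11.90, overlapped between the groups. Their 95% intervals were -0.16 to 0.45 and -0.45 to 0.21. Socs1, Stat5a and Stat5b differed by -0.07 ± 0.14, -0.09 ± 0.13 and 0.06 ± 0.13.

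For Socs3 the probe sets differed in memory cells. The lead probe set changed by -0.07 ± 0.14, whereas 1455899_x_at read 9.003, 9.33 and 9.97 without RA and 8.46, 8.85 and 9.17 with RA. That is a difference of -0.61 ± 0.14 (adjusted p = 0.052 over probe sets, paired), and 1456212_x_at differed by -0.66 ± 0.15 (adjusted p = 0.0548). The same Socs3 probe sets differed with RA in Foxp3+ cells by -0.97 ± 0.19 and -0.94 ± 0.19, with adjusted p of 0.0533 and 0.0649. With the mean of all 3 Socs3 probe sets as the gene's value, Socs3 passed in memory cells in the paired fit, at -0.45 (adjusted p = 0.0439).

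**Figure D4:**
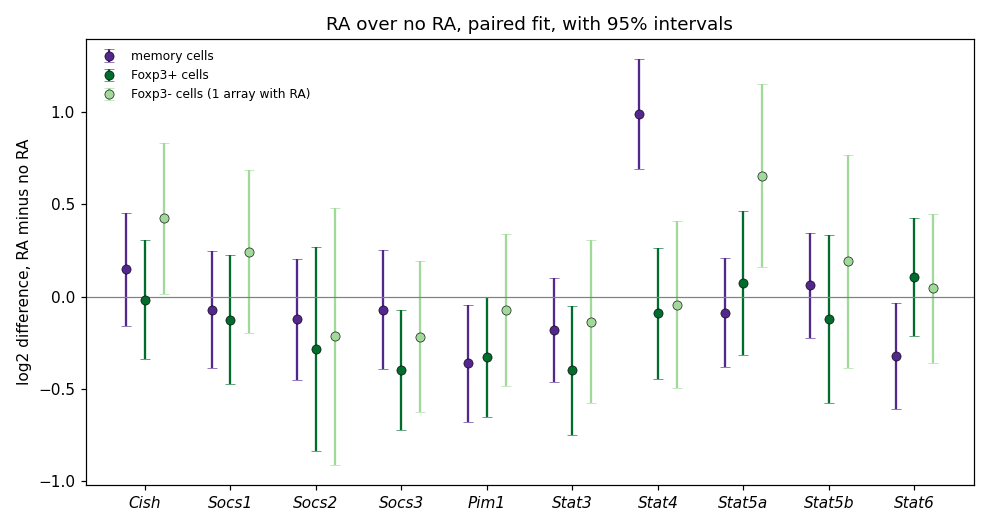
RA minus no RA log2 difference from the paired fit, with 95% intervals not adjusted for the number of genes, in memory cells, Foxp3+ cells and Foxp3- cells (1 array with RA). The highest point is Stat4 in memory cells (0.99, interval 0.69 to 1.29), and in Foxp3+ cells Stat4 is at -0.09.

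The RA difference in Stat4 was tested between the experiments. In Foxp3+ cells Stat4 read 9.51 and 10.43 with Sp-DC and 9.41 and 10.34 with RA added, a difference of -0.09 ± 0.16 (adjusted p = 0.88). Memory minus Foxp3+ was 1.08 ± 0.20 (adjusted p = 0.0185) in the paired fit, where 0.840% of 11432 genes were called higher, and 1.08 ± 0.58 (adjusted p = 1) unpaired, where 0.0525% were called in either direction. This call was lost, at adjusted p of 0.0609 to 0.14 and differences of 0.94 to 1.05, without any of 6 single arrays. These were Sp-DC Foxp3+ array 2, array 1 of Foxp3+ with RA, and arrays 1 and 3 of each memory group. The experiments differ in cells, stimulus, cytokine doses and time, and these cannot be told apart. In Foxp3+ cells none of the 10 genes passed with RA in either fit, while 1.12% of all genes were called paired and 0.101% unpaired. Before adjustment, 3 of the 10 had p under 0.05 when paired and 0 when unpaired, against 1454 and 570 of all 11846 genes. In Foxp3- cells none passed either, against 0.262% of genes paired and 0.00844% unpaired, and 2 and 0 had such a p. The largest difference there in the paired fit was Stat5a at 0.65 ± 0.22.

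Stat4 lies on chromosome 1 (chr1:51987106-52107189, plus strand). A stretch before it is shown because the gene rose with RA in memory cells in the paired fit and RA receptors bind repeats of a hexamer of this kind. The hexamer AGGTCA, in capitals here, was found at -69 from the start on which the first of its RefSeq windows is set, and it occurred on either strand in 16.3% of all windows, so a single copy is common. The line covers chr1:51986956-51987105, which ends just before the gene's first annotated base.
Stat4: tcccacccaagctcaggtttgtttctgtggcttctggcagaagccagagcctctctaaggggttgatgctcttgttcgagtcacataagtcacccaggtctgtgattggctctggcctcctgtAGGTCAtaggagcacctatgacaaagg
AGGTCA was also found in windows of Stat5a, Stat5b and Stat6, none of which passed with RA. A variant, AGTTCA, occurred in 14.0% of all windows, the windows of Cish and Stat4 among them.

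Levels of Stat4 and Stat5a did not overlap between the experiments, though whether all arrays were normalised together is not given in the sources used here. Stat4 ran from 5.92 to 7.90 on memory arrays and from 9.28 to 10.53 on co-culture arrays, without overlap, as for 7.94% of genes in that direction. Stat5a, which acts beside Stat5b downstream of IL-2, ran from 8.40 to 8.84 on memory arrays and from 7.25 to 8.21 in the co-culture, as for 10.1% in the other direction. The other 8 genes overlapped. Within the co-culture, Stat4 on arrays numbered 1 lay between 9.28 and 9.87 and on those numbered 2 between 9.96 and 10.53. Over the 11 co-culture arrays the genes most like Stat4 by Pearson r of log2 values were Gm32031 (0.99), Dgkd (0.99) and Sos2 (0.98), and those arrays share that difference by number. Most like Socs2 were Pim1 (0.97), Il2ra (0.94) and Ptpn1 (0.94). Most like Cish were Cd81 (0.97), Tnfrsf4 (0.96) and Sbf2 (0.96), and most like Pim1 were Ppm1l (0.97), Socs2 (0.97) and Prnp (0.94). Bcl3, Rpap3 and H2-Q5 were most like Socs3, each at 0.96. All these r values were taken without removing group means, so genes that differ with the sort share that difference too.

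Among the other genes of the pathway, several receptor chains rose with the sort, taken over the 3 cultures. Of 17 receptor chains tested, 5 rose in Foxp3+ cells and 0 fell in the paired fit, where 2.63% of all genes were called higher and 2.16% lower: Il2ra by 1.58 ± 0.26 and Il2rb by 0.82 ± 0.10, which are IL-2 receptor chains, Il10ra by 0.70 ± 0.10, Il10rb by 0.40 ± 0.09, and Il6st, which encodes gp130, by 0.56 ± 0.10. Il10ra passed in the unpaired fit too. Their median was 0.10, against -0.02 for all genes. Of 18 known targets of STAT5 and STAT3, 5 rose and 0 fell, against the same 2.63% and 2.16% of all genes, with a median of 0.30. These were Lta, a cytokine of the TNF family (1.21 ± 0.18, also unpaired), the survival genes Bcl2l1 (0.57 ± 0.09) and Mcl1 (0.32 ± 0.08), the NF-kappaB partner Bcl3 (0.58 ± 0.08) and the cyclin gene Ccnd2 (0.58 ± 0.08). The phosphatase gene Ptpn1, a negative regulator of Janus kinases, rose by 0.64 ± 0.10 and also passed unpaired, as the only call of 10 phosphatase, PIAS and adaptor genes. Pim2, a relative of Pim1, fell by 1.10 ± 0.18, and none of the 4 Janus kinases or of the other 4 SOCS genes passed over the 3 cultures. With LP-DC alone, Socs5 of those 4 rose in the paired fit, by 0.81 ± 0.17 (adjusted p = 0.0315). Jak2 was higher with LP-DC than with Sp-DC in Foxp3+ cells, by 0.85 ± 0.16 (adjusted p = 0.0414, paired), where 1.81% of genes were called. Most other list genes called between DC sources are not given here.

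Ligands went in both directions with the sort. Of 6 ligands tested, Lif (1.07 ± 0.21) and Osm (0.68 ± 0.14), both cytokines of the IL-6 family, rose and Il4 fell by 0.85 ± 0.12 in the paired fit. In that fit, over the 3 cultures, 2.63% of all genes were called higher and 2.16% lower.

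With RA in memory cells most ligands fell while most receptor chains did not pass. Of 9 ligands tested, 6 fell and 0 rose in the paired fit, where 2.34% of all genes were called lower and 2.60% higher, among them Il9 (-2.95 ± 0.13), Il10 (-2.84 ± 0.13), Il21 (-2.66 ± 0.38) and Il4 (-1.99 ± 0.15), and Il10 passed unpaired too. The median of the 9 was -1.20, against 0.00 for all genes. Ifng, a product of STAT4 signalling, fell too (-1.20 ± 0.19), as did Il13 (-0.76 ± 0.13). Against the same shares of all genes, 2 of 16 receptor chains rose, Ifngr1 (1.60 ± 0.24) and Il10rb (0.80 ± 0.13), and 2 fell, Il2ra (-0.68 ± 0.14) and Il6ra (-0.96 ± 0.22). Of 17 targets of STAT5 and STAT3, Id2 rose by 0.55 ± 0.13, and Nfil3 (-1.14 ± 0.13), Il24 (-1.08 ± 0.15) and Gzmb (-0.67 ± 0.15) fell. In Foxp3+ cells Il6ra (-2.02 ± 0.25) fell with RA in the paired fit, and 0 of the 6 ligands passed.

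Beside the Stat4 difference in memory cells, 3 of 6 tested CD8 T and NK markers rose with RA in the paired fit, where 2.60% of all genes were called higher, namely Nkg7 (1.76 ± 0.16), Gzmk (0.89 ± 0.16) and Klrd1 (0.87 ± 0.14), and Gzmb fell. The summed level of all 9 markers was 999 to 1354 without RA and 1837 to 2357 with RA. On memory arrays the brightest of these probe sets were those of Nkg7, at most 10.06, and Gzmk, at most 9.50. Cd8b1 and Ncr1, which define those cells, were at most 5.62 and 5.64 on memory arrays, below the array medians, and Cd8a was between 4.72 and 5.93. B cell markers summed to 210 to 308 without RA and 217 to 285 with RA, and 0 of 2 tested passed. DC and myeloid markers summed to 621 to 1028 and 626 to 858, with 0 of 6 passing. Of 6 Foxp3+ cell markers, Gpr83 (0.80 ± 0.18) and Izumo1r (0.56 ± 0.13) rose. The part of such cells in the Stat4 difference was not tested.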

How the data were processed

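RNA from flow-sorted T cells was hybridised to Affymetrix M430v2 arrays. Per the series' design text, the authors preprocessed the raw data with RMA in GenePattern, whose version is not given in the sources used here. The deposited values are intensities on a linear scale, from 4.06 to 27170, and log2 was taken here. Of 45101 probe sets, 34958 had 1 gene symbol, 932 several and 9211 none, and only the first were named. The probe set with the highest mean stood for its gene (x_at sets only where no other existed). A gene was tested in an experiment where 2 or more of its arrays exceeded their median: 12062 in memory cells, 11846 in the co-culture and 11432 in both. Groups came from the sample titles. For 5 of the 6 Foxp3+ arrays the source name says Foxp3-, while the label of the sort after culture says GFP+, as the title does.

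Differences were fitted with limma 3.58.1 in R 4.3.3 (lmFit and eBayes), by experiment, without the array number and, as the alternative, with it as a block. The residuals of same-numbered arrays correlated at 0.45 to 0.75 over 10 pairs of co-culture groups and at 0.66 to 0.94 in memory cells. The 10 genes and all pathway and marker lists were chosen with earlier results of these data known, as were the rules for naming: all 10 genes, up to 4 genes for each other list and comparison with the largest difference among those that passed, 3 RA controls, and the 3 genes most like each of the 10. Some further list genes are named to complete a count. A further list of target genes is not reported here. Alternatives were quantile normalization, median-centring, a pseudocount of 32, other filters, all probe sets averaged, other variance models, the compared groups alone, and each array left out. No columns were identical. Sequences came from RefSeq windows.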

Additional observations from a re-analysis of the deposited data

Results flagged for a closer look

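In the paired fit, Stat4 differed between experiments in its response to retinoic acid. The difference, memory cells minus Foxp3+ cells of the co-culture, was 1.08 on the log2 scale in the paired limma fit (adjusted p = 0.0185) and had an adjusted p of 1 in the unpaired fit. The response was 0.99 in memory cells and -0.09 in Foxp3+ cells. All 3 memory pairs were higher with RA, and both Foxp3+ pairs were lower, at -0.09 each. The paired call was lost without any of 6 single arrays. Without RA, Stat4 read 5.92 to 6.78 in memory cells, near the array medians, and 9.51 to 10.43 in Foxp3+ cells with Sp-DC.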

How the results depend on the processing

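Counts here are of the 10 genes called. With the array number as a replicate block (the paired fit), counts were 1 in place of 0 for RA in memory cells, 4 in place of 2 for the sort over 3 cultures, 3 in place of 0 for the sort with LP-DC, and 1 in place of 0 for memory minus Foxp3+. Unpaired, leaving out single arrays gave 0 to 2 for the sort over 3 cultures and 0 to 2 with LP-DC. One fit over all arrays gave 1 for the sort over 3 cultures and 1 with LP-DC, where quantile normalization gave 2, the 60th percentile filter 2 and averaged probe sets 1. In the paired fit, memory cells had 2 genes with averaged probe sets and 0 without both arrays numbered 3, which also gave 0 for memory minus Foxp3+; single arrays left out gave 0 to 1 for each. The paired sort with Sp-DC gave 2 with quantile normalization, 2 with trended and robust variances, 2 with 1 fit over all arrays, 4 with the compared groups alone, and 0 to 3 with single arrays left out. Compared groups alone gave 5 for the paired sort with LP-DC and 1 for LP-DC over Sp-DC with RA, where quantile normalization also gave 1. The cause was not tested.

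Of 222 alternatives of the 11 gene values that passed, 196 kept the call, 26 lost it and 0 changed sign. These are not all separate checks. In the paired memory fit, for example, leaving out either array numbered 3, or both, gave the same result. Cish, Pim1 and Socs2 kept the paired sort call over 3 cultures and with LP-DC under every alternative run. Of 5268 alternatives of values that had not passed, 46 passed. The compared groups alone could not be fitted with the block for RA in Foxp3- cells or for the sort with Sp-DC and RA.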
